A study of Homo sapiens and Canis lupus familiaris with 27 samples.

Results

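The 10 genes described here, ATM, ATR, ATRIP, TOPBP1, RAD9A, CLSPN, TIMELESS, TIPIN, CHEK1 and CHEK2, encode the kinases and mediators of the replication stress checkpoint. They were chosen by name for their role in the pathway and make up 10 of the 25300 gene names in the 3 deposited count tables. All 10 were present in each table and passed the filter on low counts in each cell line. Their RNA was measured by sequencing in PC-3, LNCaP and CT1258 cells. PC-3 is a human prostate adenocarcinoma line from a bone marrow metastasis, LNCaP is a human line from a lymph node metastasis, and CT1258 is a prostate adenocarcinoma line of the dog. Each line was treated with 15 µM PDA-66, an indolylmaleimide known to depolymerize microtubules, for 12 h or for 24 h. Controls received the solvent, 0.15% DMSO, for 24 h. The 12 h samples were therefore compared with controls taken at 24 h, and time in culture and treatment cannot be told apart in that comparison. Each group held 3 samples, except that 2 PC-3 controls had counts. Both human lines and the canine line are established cultures, and each tumour is represented by 1 line.

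When a replication fork stalls, single-stranded DNA coated with RPA recruits the kinase ATR through its partner ATRIP. TOPBP1, brought in by the RAD9-HUS1-RAD1 clamp, switches ATR on, and Claspin (CLSPN) together with the TIMELESS-TIPIN pair presents CHK1 (CHEK1) to ATR for phosphorylation. ATM and its main target CHK2 (CHEK2) form the parallel branch that answers double-strand breaks. Both branches restrain the CDC25 phosphatases and so hold back entry into mitosis. These are largely changes in protein activity, which RNA counts do not measure.

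Promoter sequence was available for all 10 genes in RefSeq, with 15 start sites in the build GRCh38.p14. Sites of the E2F family, searched on both strands as TTTGGCGC, TTTCGCGC, TTTCCCGC or TTTGGCGG, were found for 3 genes (CLSPN, TIPIN and TOPBP1), against 3.35% of all 35116 promoters. The NF-Y letters CCAAT were found for 8 genes, against 34.6% of all promoters, and the CHR letters TTTGAA or TTCGAA for 1 gene, ATM, against 16.4%. Genes with several entries had more chances of a match, and a match is a description of letters only. The windows below run from 100 bases before to 10 bases after the start site, 5′ to 3′ on the strand of the gene, and are shown because they hold the E2F letters, or, for CHEK1, a pair of CCAAT boxes near the start site. Capitals mark the motif on either strand. They lie at chr1:35769969-35770078 (CLSPN), chr15:66356676-66356785 (TIPIN), chr3:133661932-133662041 (TOPBP1) and chr11:125626256-125626365 (CHEK1).
CLSPN: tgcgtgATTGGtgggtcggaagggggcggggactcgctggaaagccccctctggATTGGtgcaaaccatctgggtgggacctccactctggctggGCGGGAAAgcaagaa
TIPIN: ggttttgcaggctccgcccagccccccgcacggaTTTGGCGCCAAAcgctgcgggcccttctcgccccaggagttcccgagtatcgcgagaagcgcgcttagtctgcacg
TOPBP1: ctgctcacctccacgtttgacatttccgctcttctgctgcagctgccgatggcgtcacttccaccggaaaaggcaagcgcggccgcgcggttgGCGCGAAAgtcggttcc
CHEK1: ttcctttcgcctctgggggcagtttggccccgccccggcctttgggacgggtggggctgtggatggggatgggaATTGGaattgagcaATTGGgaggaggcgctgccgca

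Total counts per sample ranged from 14650839 to 18091755 in PC-3 and from 11923105 to 14741883 in LNCaP. In CT1258 the controls had a mean total 2.64 times that of the treated samples, with no overlap, so depth and treatment cannot be told apart there. Levels are given as CPM, that is counts scaled to a common library size, here with TMM factors. A gene was called changed at an adjusted p below 0.001 in edgeR's quasi-likelihood test, the threshold the study used. LNCaP replicates scattered more than the others, with a biological coefficient of variation of 0.24, against 0.0971 in PC-3 and 0.1 in CT1258. Samples also differed in how long genes fared against short ones, measured as the difference in log2 level between long and short genes relative to the mean of the line. This gap was -0.849 in LNCaP PDA-66 12 h replicate 2, -0.764 in CT1258 DMSO replicate 2 and -0.377 in PC-3 DMSO replicate 3, and lay between -0.16 and 0.343 in all other samples. For several results the value without such a sample is given as well. In CT1258 the gap was -0.764 to -0.153 in the controls, 0.164 to 0.292 at 12 h and 0.051 to 0.147 at 24 h. Length gap and treatment therefore cannot be told apart in that line, also without DMSO replicate 2. The lines carried the markers named for them only in part. LNCaP expressed FOLH1, which encodes a prostate membrane antigen, at 919 to 1410 CPM and PC-3 at 0.11 CPM or less, while CT1258 had 2.84 to 5.7 CPM of FOLH1 and at most 0.262 CPM of the epithelial gene EPCAM. KLK2, a secretory gene of the prostate, reached 10.8 CPM in CT1258, in controls alone. Of 5 blood and endothelial markers, 3 were tested in PC-3 and 2 of them were lower at 12 h, LYZ (up to 19.4 CPM, log2 fold change -3.40) and PECAM1 (up to 18.5 CPM, log2 fold change -1.72), while in LNCaP none exceeded 0.165 CPM. The part of this shift in the results was not tested.

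The checkpoint genes most often higher after PDA-66 were CLSPN, CHEK1 and TIPIN. In each of these 3 genes, every treated sample lay above every control of its line in all 6 comparisons with DMSO, as was the case for 2.67% of the 8265 genes tested in all lines. In PC-3 at 12 h, 3 of the 10 genes were called higher (CLSPN, TIPIN, CHEK1) and 1 lower (CHEK2), against 27.6% of all genes called in either direction, 13% higher and 14.6% lower. At 24 h, 4 were higher (CLSPN, CHEK1, TIPIN, TIMELESS) and none was lower, against 19.3% of all genes in either direction and 8.88% higher. In CT1258, 7 of the 10 were called higher at both times (CLSPN, CHEK1, TIPIN, TOPBP1, CHEK2, ATM, ATR), against 44.3% of all genes called at 12 h and 33.8% at 24 h, and 22.2% and 16.6% of all genes were called higher. With the deeper CT1258 controls thinned to the depth of the treated samples, the same 7 genes were called at each time. They were also called at each time with a correction for gene length. The CT1258 log2 fold changes at 12 h were then 0.70 (ATM), 0.65 (ATR), 0.89 (TOPBP1), 1.28 (CLSPN), 1.33 (CHEK1), 1.23 (CHEK2) and 1.51 (TIPIN). CLSPN, CHEK1 and TIPIN were called higher at both times in both PC-3 and CT1258, as were 2.61% of the 8265 genes. In LNCaP none was called, as for nearly all genes of that line (0.0076% called at 12 h and 0% at 24 h). At an adjusted p below 0.05 the LNCaP counts were 5 genes at 12 h (9.14% of all genes) and 4 at 24 h (2.92%), all higher, and at an unadjusted p below 0.05 they were 8 (30%) and 6 (19.8%), while DESeq2 called 3 genes at each time at 0.001 (4.71% and 2.17% of all genes). The treated samples all exceeded the controls for 7 and 7 of the 10 genes in PC-3 at 12 h and 24 h (35.5% and 30.6% of all genes), for 7 and 9 in LNCaP (13.5% and 23.1%) and for 7 and 9 in CT1258 (36.1% and 33.1%). The median log2 fold change over the 10 genes was 0.44 and 0.62 in PC-3 (12 h and 24 h), 0.82 and 0.86 in LNCaP, and 1.00 and 0.90 in CT1258, beside medians over all genes between -0.01 and 0.03. Because the cells were sequenced in bulk, more cells in a cycle phase and more RNA per cell cannot be told apart. Both times were compared with the same controls of a line, so these comparisons share them. The study describes the replicates of a group as biologically independent.

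**Figure D1:**
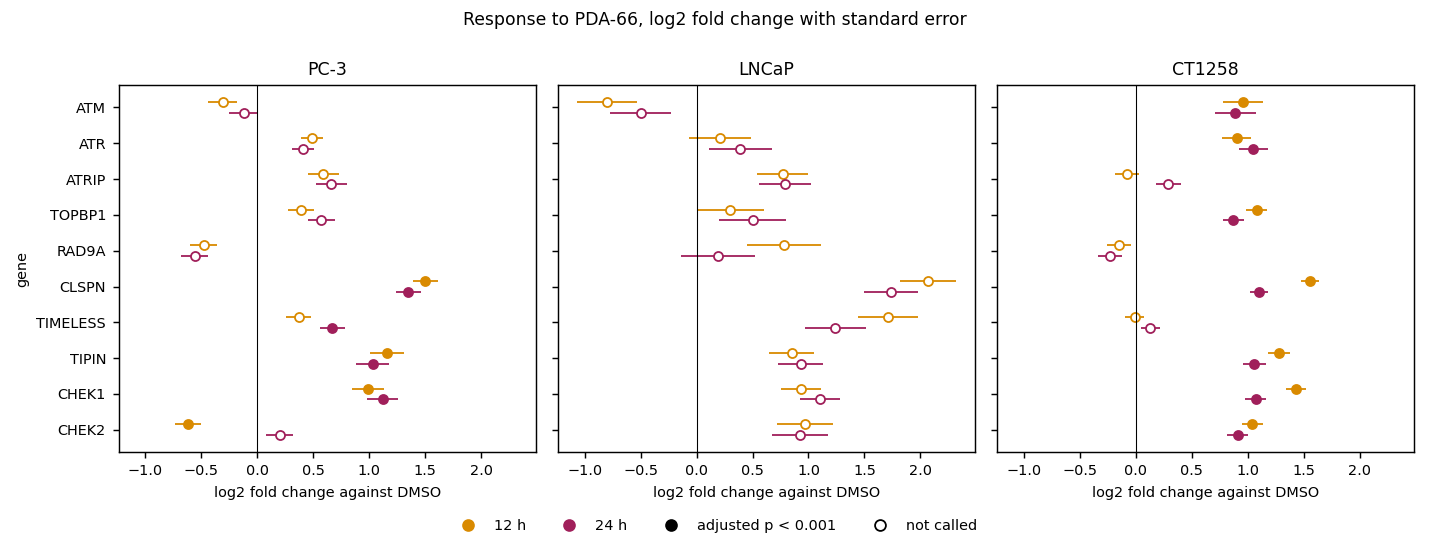
Log2 fold change against DMSO (horizontal axis) of the 10 checkpoint genes in each cell line, at 12 h (orange) and 24 h (purple), with standard errors. Filled points passed an adjusted p of 0.001 in edgeR: 4 genes at each time in PC-3, 0 in LNCaP and 7 at each time in CT1258.

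Of the apical kinases, ATR and ATM were called higher in CT1258, and neither was called in the human lines with all samples in the quasi-likelihood test. ATR, which answers single-stranded DNA, had 79.6, 51.7 and 71.6 CPM in the CT1258 controls, 135, 132 and 110.3 CPM at 12 h and 136, 137 and 149 CPM at 24 h. All 6 treated samples lay above the 3 controls, of which replicate 2 was the lowest. ATR rose by a log2 fold change of 0.90 ± 0.13 (SE, adjusted p = 4.18e-05) at 12 h and 1.05 ± 0.13 (adjusted p = 1.59e-05) at 24 h, and without CT1258 DMSO replicate 2 the changes were 0.73 and 0.88, still called. In PC-3 the controls had 64.6 and 58.7 CPM and the treated samples 73.7 to 89.8 CPM, again without overlap, with log2 fold changes of 0.49 (adjusted p = 0.00129) and 0.41 (adjusted p = 0.00544) that were not called. The PC-3 change at 12 h was called in 2 of 8 fits that left out 1 sample. It was also called in edgeR's likelihood ratio test, among 5348 of 13777 genes. In LNCaP the 12 h samples had 100.7, 40.3 and 82.2 CPM around controls of 60.2 to 66.8 CPM, the low value being that of replicate 2. Its log2 fold change was 0.21 with that sample and 0.51 (adjusted p = 0.00933) without it.

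ATM, the kinase of the double-strand break branch, had 51.3, 28.3 and 53.6 CPM in the CT1258 controls, 90.5, 90.4 and 77.9 CPM at 12 h and 77.7, 90.6 and 77.7 CPM at 24 h. The treated samples all exceeded the controls. ATM rose by 0.96 ± 0.18 on the log2 scale at 12 h (adjusted p = 0.00032) and by 0.89 ± 0.18 at 24 h (adjusted p = 0.000792). Without CT1258 DMSO replicate 2 these changes were 0.71 and 0.64, both called. Leaving out any 1 of the 9 CT1258 samples kept the call in 5 of 9 fits at 12 h and in 3 of 9 at 24 h, with adjusted p up to 0.00208 and 0.00572. In LNCaP, ATM had 42.3, 75.1 and 72.6 CPM in the controls, 46.9, 25.1 and 36.8 CPM at 12 h and 42.7, 48.5 and 43.5 CPM at 24 h. Control replicate 1 lay at the level of the treated samples, while the other two controls lay above all of them. The LNCaP log2 fold changes were -0.80 (adjusted p = 0.0919) and -0.50 (adjusted p = 0.354), and the PC-3 changes -0.31 (adjusted p = 0.05) and -0.12 (adjusted p = 0.437), none of them called by the quasi-likelihood test. With limma voom the LNCaP change at 12 h was called, lower, among 1831 of 13156 genes called in either direction. The PC-3 change at 12 h depended on single controls and on gene length, ATM having the longest of the 10 transcripts (12915 nt). It was -0.11 (adjusted p = 0.476) without PC-3 DMSO replicate 2, -0.47 (adjusted p = 0.00572) without replicate 3, and -0.48 (adjusted p = 0.000967), which was called, with a correction for gene length. The PC-3 change at 24 h was 0.08 without DMSO replicate 2.

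ATRIP, which tethers ATR to RPA-coated DNA, was not called in any line with all samples in edgeR's quasi-likelihood test. Its PC-3 controls had 15.3 and 20.5 CPM and the treated PC-3 samples 24.6 to 30.3 CPM, with log2 fold changes of 0.59 (adjusted p = 0.00316) and 0.66 (adjusted p = 0.00193). Without PC-3 DMSO replicate 3 both were called, at 0.83 (adjusted p = 0.00043) and 0.90 (adjusted p = 0.000314), as they were in edgeR's likelihood ratio test with all samples. In LNCaP the controls had 15.8 to 21.3 CPM and the treated samples 24.4 to 42.0 CPM, the highest being 12 h replicate 2. Without that sample the 12 h log2 fold change was 0.48 in place of 0.77. In CT1258 the controls spanned 23.7 to 28.8 CPM and overlapped the 12 h samples (24.2 to 26.9 CPM), while the 24 h samples lay higher at 31.4 to 34.6 CPM (log2 fold change 0.29, adjusted p = 0.0265). ATRIP shares 26.7% of its annotated exon bases with TREX1 on the same strand, so its counts are uncertain.

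The activators of ATR did not move together. TOPBP1, the direct activator, had 146.8, 119 and 147 CPM in the CT1258 controls, 299, 298 and 273 CPM at 12 h and 242, 257 and 255 CPM at 24 h. All treated samples were well above all controls. It rose by 1.08 ± 0.093 on the log2 scale at 12 h (adjusted p = 2.84e-07) and by 0.87 ± 0.093 at 24 h (adjusted p = 3.53e-06). In PC-3 TOPBP1 went from 92.1 and 83.2 CPM in the controls to 113 to 117 CPM at 12 h and 111 to 152 CPM at 24 h, with log2 fold changes of 0.39 (adjusted p = 0.0147) and 0.57 (adjusted p = 0.00184), not called. In LNCaP it was 49.9 CPM in 12 h replicate 2 and 97.1 to 117 CPM in the other two 12 h samples, and was not called (log2 fold changes 0.30 and 0.50). Without replicate 2 the 12 h change was 0.59 (adjusted p = 0.0318).

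RAD9A, the RAD9 subunit of the clamp that brings TOPBP1 to the fork, was not called in any comparison by edgeR's quasi-likelihood test. In PC-3 it had 17.4 and 18.9 CPM in the controls and 12.1 to 13.8 CPM in the 6 treated samples, without overlap, with log2 fold changes of -0.48 (adjusted p = 0.00345) and -0.56 (adjusted p = 0.00178), both of which the likelihood ratio test called. In LNCaP, 12 h replicate 2 stood at 29.1 CPM beside 9.65 to 12.0 CPM in the other controls and 12 h samples. Without it the 12 h log2 fold change was 0.21 in place of 0.78. In CT1258 the control that stood apart, replicate 2, was again the extreme value at 127.7 CPM, with the other controls at 92.6 and 96.2 CPM and the treated samples at 86.7 to 98.4 CPM. Without it the 12 h log2 fold change was 0.00 in place of -0.15. In both samples with a strong length gap, RAD9A, a short transcript of 2086 nt, was high while ATM and ATR were low. The part of the length gap in these values was not tested beyond the correction for gene length and the fits without these samples.

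CLSPN, the mediator that carries CHK1 to ATR, had the largest log2 fold change of the 10 genes in each of the 6 comparisons with DMSO before length correction. In CT1258 at 24 h it was close to CHEK1 (1.07), TIPIN (1.06) and ATR (1.05). With a correction for gene length CLSPN was not the largest in CT1258. At 12 h it had 1.28, below TIPIN (1.51) and CHEK1 (1.33). At 24 h it had 0.89, below TIPIN (1.24), CHEK2 (1.07) and CHEK1 (1.00). For CLSPN, PC-3 controls had 48.1 and 48.9 CPM, the 12 h samples 146, 125 and 141 CPM and the 24 h samples 136, 122 and 113 CPM. LNCaP controls had 30.6, 34.8 and 16.8 CPM, the 12 h samples 110.1, 125 and 109 CPM and the 24 h samples 87.3, 93.8 and 93.0 CPM. CT1258 controls had 43.9, 49.6 and 48.4 CPM, the 12 h samples 137, 147 and 134 CPM and the 24 h samples 101, 101 and 102 CPM. In all 3 lines the treated samples stood far above the controls, and in LNCaP and CT1258 the 12 h samples lay above the 24 h samples without overlap. CLSPN rose 2.83-fold at 12 h and 2.56-fold at 24 h in PC-3 (log2 fold changes 1.5 ± 0.11 and 1.35 ± 0.11, adjusted p = 2.53e-07 and 1.39e-06). In CT1258 it rose 2.94-fold and 2.14-fold (log2 fold changes 1.56 ± 0.081 and 1.10 ± 0.081, adjusted p = 4.38e-09 and 1.19e-07). The LNCaP folds of 4.19 and 3.34 (log2 fold changes 2.07 ± 0.25 and 1.74 ± 0.24) had adjusted p of 0.00518 and 0.0177. Without LNCaP PDA-66 12 h replicate 2 they were called, with log2 fold changes of 2.00 (adjusted p = 0.000478) and 1.74 (adjusted p = 0.00076).

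TIMELESS and TIPIN form 1 complex at the fork, but their RNA levels did not change alike. TIPIN had 9.32 and 10.3 CPM in the PC-3 controls, 20.5 to 23.8 CPM at 12 h and 17.5 to 23.8 CPM at 24 h. In CT1258 it had 50.1 to 65.8 CPM in the controls, 132 to 144 CPM at 12 h and 113 to 120.2 CPM at 24 h. Neither line showed overlap with its controls. TIPIN rose by 1.16 ± 0.15 and 1.03 ± 0.15 on the log2 scale in PC-3 (adjusted p = 3.3e-05 and 0.000131) and by 1.28 ± 0.10 and 1.06 ± 0.10 in CT1258 (adjusted p = 1.36e-07 and 1.48e-06). In LNCaP the controls had 16.8 to 22.7 CPM and the treated samples 27.7 to 43.6 CPM, the lowest being 12 h replicate 2. The LNCaP change at 12 h was 0.85 (adjusted p = 0.0339), and without that sample 1.02 (adjusted p = 0.000984), which was called. TIPIN shares 21.1% of its exon bases with the pseudogene RPL9P25, so its level carries that uncertainty.

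TIMELESS had 46.8, 48.4 and 48.8 CPM in the CT1258 controls, 44.8, 49.2 and 49.1 CPM at 12 h and 54.5, 52.2 and 50.3 CPM at 24 h. The 12 h samples overlapped the controls and the 24 h samples lay slightly above them. Its log2 fold changes there were -0.01 ± 0.087 (adjusted p = 0.934) and 0.13 ± 0.087 (adjusted p = 0.221). In PC-3 the controls had 129 and 103.9 CPM, the 12 h samples 145 to 157 CPM and the 24 h samples 177 to 191 CPM, and TIMELESS rose at 24 h (log2 fold change 0.67 ± 0.11, adjusted p = 0.00023). With 1 sample of this line left out in turn the call held in 5 of 8 fits, with adjusted p up to 0.00116. In LNCaP the controls had 122, 72.0 and 68.6 CPM, the 12 h samples 238, 384 and 236 CPM and the 24 h samples 208, 205 and 209 CPM. The treated samples were all higher, and 12 h replicate 2 was the highest. The log2 fold change at 12 h was 1.71 ± 0.27 (adjusted p = 0.00859), and without replicate 2 it was 1.44 (adjusted p = 0.00106).

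**Figure D2:**
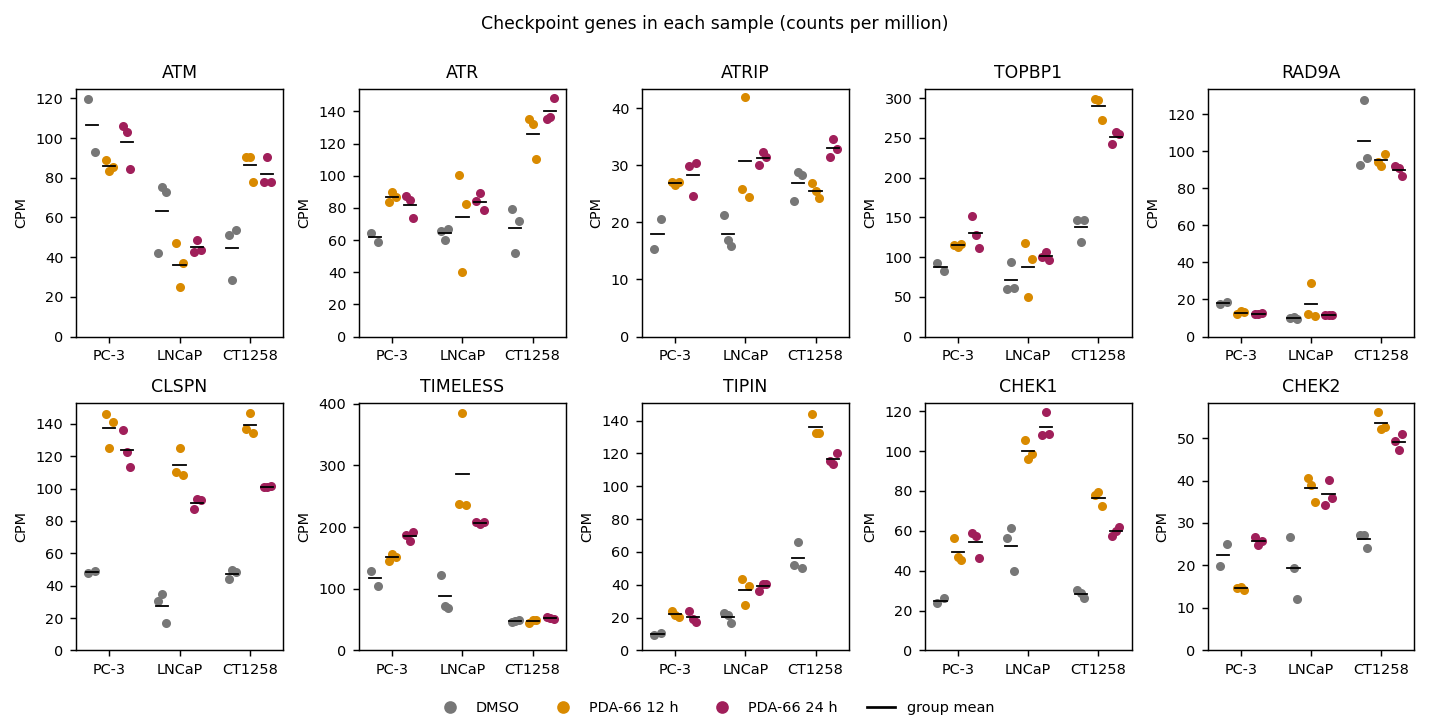
CPM (vertical axis, from 0) of each checkpoint gene in every sample of PC-3, LNCaP and CT1258, with DMSO in grey, PDA-66 12 h in orange, PDA-66 24 h in purple and bars at the group means. CLSPN, CHEK1 and TIPIN lie above the controls in all 3 lines, whereas TIMELESS stays near 50 CPM in CT1258 and CHEK2 is lowest in PC-3 at 12 h.

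CHEK1, the effector kinase of the ATR branch, was higher in all 3 lines. PC-3 controls had 23.7 and 26.3 CPM, the 12 h samples 56.4, 46.8 and 45.4 CPM and the 24 h samples 58.7, 57.3 and 46.5 CPM. LNCaP controls had 56.2, 61.3 and 39.8 CPM, the 12 h samples 105, 95.9 and 98.7 CPM and the 24 h samples 108, 119 and 109 CPM. CT1258 controls had 30.4, 29.0 and 26.1 CPM, the 12 h samples 77.8, 79.4 and 72.7 CPM and the 24 h samples 57.2, 60.1 and 61.7 CPM. No treated sample overlapped the controls of its line, and in CT1258 the 12 h samples lay above the 24 h samples. CHEK1 rose by log2 fold changes of 0.99 ± 0.14 and 1.12 ± 0.14 in PC-3 (adjusted p = 4.99e-05 and 2.97e-05). In CT1258 it rose by 1.43 ± 0.092 and 1.07 ± 0.093 (adjusted p = 2.41e-08 and 5.84e-07). In LNCaP the changes were 0.93 ± 0.18 and 1.10 ± 0.18 (adjusted p = 0.0159 and 0.0235). The use of strand in counting is not stated, so reads of CHEK1 may not be told from those of an opposite-strand lncRNA over 13.4% of its exon bases.

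CHEK2, the effector kinase of the ATM branch, behaved differently in PC-3 than in CT1258. In PC-3 it had 19.9 and 25 CPM in the controls, 14.7, 15.0 and 14.1 CPM at 12 h and 26.7, 24.8 and 25.7 CPM at 24 h. The 12 h samples lay below both controls, and the 24 h samples overlapped them. CHEK2 fell by 0.62 on the log2 scale at 12 h (SE 0.12, adjusted p = 0.00082), a call made in 1 of 8 fits that each left out 1 sample, namely that without PC-3 DMSO replicate 2. Without PC-3 DMSO replicate 3 the change was -0.43 (adjusted p = 0.0091), and with all samples the call was also lost with the length correction (-0.52, adjusted p = 0.00146), with no filter on low counts, with limma voom, with scaling by library size only and with only the groups compared. The change at 24 h was 0.20 (adjusted p = 0.19). In CT1258 CHEK2 had 24.1 to 27.2 CPM in the controls, 52.2 to 56.1 CPM at 12 h and 47.1 to 51.0 CPM at 24 h, and rose by 1.04 ± 0.093 and 0.91 ± 0.094 (adjusted p = 4.16e-07 and 2.55e-06). In LNCaP the controls had 12.2 to 26.8 CPM and the treated samples 34.3 to 40.6 CPM, without overlap, with log2 fold changes of 0.97 (adjusted p = 0.0429) and 0.92 (adjusted p = 0.0828).

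Between 12 h and 24 h few of the 10 genes differed. CHEK2 in PC-3 was the 1 gene called, higher at 24 h by 0.82 ± 0.11 (adjusted p = 0.000502), against 1.41% of all genes called in PC-3. It was called in 2 of 8 fits that left out 1 sample, and its log2 fold change stayed between 0.79 and 0.84 in them. In CT1258 none was called, against 2.13% of all genes. At an unadjusted p below 0.05 the count there was 5 (32.5% of all genes), DESeq2 called 1 gene (6.75%), and the gene nearest to the threshold was CLSPN, lower at 24 h (log2 fold change -0.46 ± 0.080, adjusted p = 0.00179). Without CT1258 DMSO replicate 2, CLSPN and CHEK1 were called, among 1352 of the 9934 genes tested in that fit. In LNCaP none was called by edgeR or DESeq2 and none had an unadjusted p below 0.05, while 0% of all genes passed the threshold and 6.36% had an unadjusted p below 0.05.

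The responses of the cell lines were compared directly in 1 fit over all 26 samples and 8265 shared genes. It used 1 estimate of spread per gene for all 3 lines, although LNCaP replicates scattered more. Standard errors of differences that involve LNCaP may therefore be too small. For TIMELESS, that of PC-3 minus LNCaP at 12 h was 0.25, below the 0.27 of the LNCaP change alone. At 12 h the responses of CHEK2, TIMELESS and ATM differed between lines. The CHEK2 response in PC-3 was lower than that in LNCaP by 1.58 ± 0.25 on the log2 scale (adjusted p = 0.000146) and lower than that in CT1258 by 1.74 ± 0.25 (adjusted p = 1.54e-05). The first was called in 25 of 26 fits that each left out 1 sample, and was -1.39 (adjusted p = 0.00261) without PC-3 DMSO replicate 3, and the second was called in all 26. The TIMELESS response in LNCaP exceeded that in CT1258 by 1.62 ± 0.24 (adjusted p = 2.39e-05, called in 26 of 26 fits). The PC-3 response of TIMELESS was below that of LNCaP by a log2 difference of -1.31 ± 0.25 (adjusted p = 0.000802), which was called in 4 of 26 fits with adjusted p up to 0.00649, and in neither fit that left out a PC-3 control (-1.16 without replicate 2 and -1.45 without replicate 3). The ATM response in LNCaP lay below that in CT1258, with a log2 difference of -1.85 ± 0.33 (adjusted p = 0.000115, called in 26 of 26 fits). No fit left out both LNCaP PDA-66 12 h replicate 2 and CT1258 DMSO replicate 2, the samples with the strongest length gap. ATM has a long transcript, and this joint fit had no correction for gene length. In the fits per line, that correction moved the ATM change at 12 h from -0.80 to -0.61 in LNCaP and from 0.96 to 0.70 in CT1258. Of the 10 genes, 2 thus differed between PC-3 and LNCaP, against 3.9% of all genes, 1 between PC-3 and CT1258, against 12.7%, and 2 between LNCaP and CT1258, against 19.4%. At 24 h none of the 10 was called in any of the 3 pairs, against 1.48%, 6.57% and 5.8% of all genes, while limma voom called 2 between PC-3 and CT1258 (23% of all genes) and none in the other pairs. At 24 h the unadjusted p was below 0.05 for CHEK2, TIMELESS and RAD9A between PC-3 and LNCaP, for ATM, ATR and CHEK2 between PC-3 and CT1258, and for ATM, ATR, CLSPN and TIMELESS between LNCaP and CT1258. For CHEK1 the difference between PC-3 and LNCaP was 0.07 ± 0.20 at 12 h and 0.03 ± 0.20 at 24 h, with 95% intervals from -0.35 to 0.48 and from -0.38 to 0.44.

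**Figure D3:**
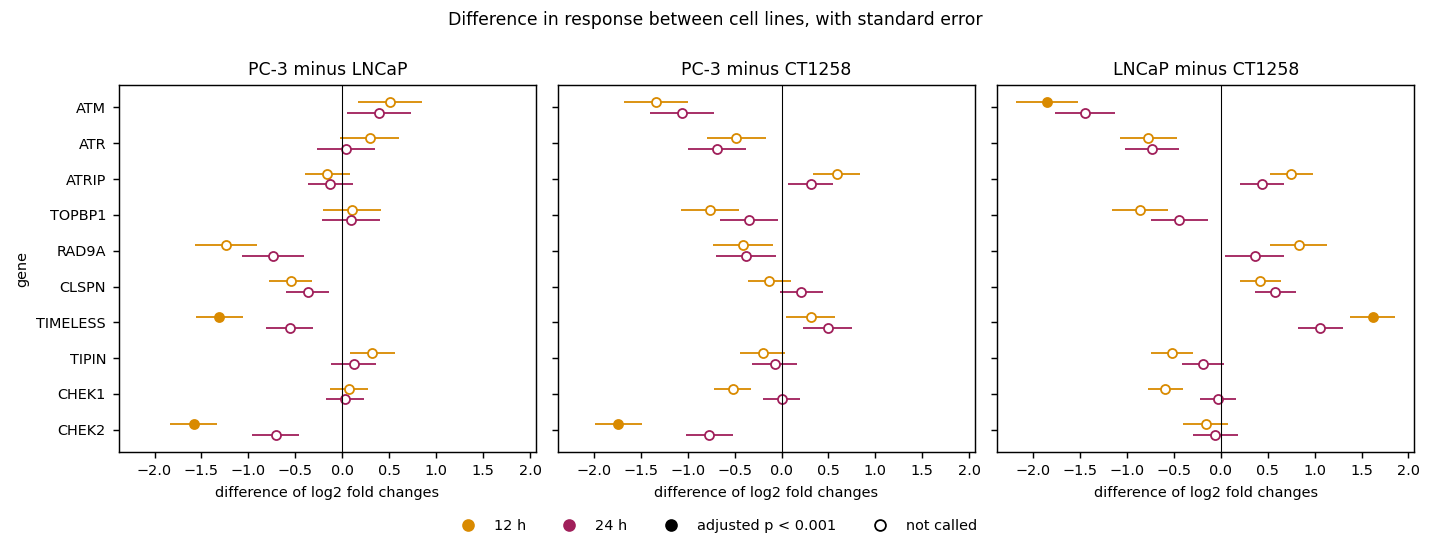
Difference between cell lines in the log2 fold change against DMSO (horizontal axis) for each checkpoint gene, at 12 h (orange) and 24 h (purple), with standard errors. Filled points passed an adjusted p of 0.001. CHEK2 stands at -1.58 and -1.74 in the pairs with PC-3, and TIMELESS at 1.62 and ATM at -1.85 in LNCaP minus CT1258, all at 12 h.

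Ratios of partner genes within a sample do not depend on the scaling between samples. They can still carry the length gap, since partners differ in transcript length, such as TIPIN (1728 nt) and TIMELESS (5158 nt). No ratio was corrected for gene length. The log2 ratio of CHEK1 to CHEK2 in PC-3 went from 0.16 ± 0.13 (SD, n = 2) in the controls to 1.76 ± 0.16 (SD, n = 3) at 12 h and 1.07 ± 0.19 (SD, n = 3) at 24 h, without overlap. In CT1258 the same ratio went from 0.13 ± 0.04 to 0.52 ± 0.08 and 0.28 ± 0.07 (SD, n = 3 each), also without overlap. In LNCaP it was 1.48 ± 0.36 in the controls, 1.39 ± 0.10 at 12 h and 1.61 ± 0.04 at 24 h, and the treated groups overlapped the controls. The log2 ratio of TIPIN to TIMELESS in CT1258 went from 0.21 ± 0.21 to 1.52 ± 0.15 and 1.15 ± 0.09 (SD, n = 3 each). In LNCaP it went the other way at 12 h, from -2.06 ± 0.35 to -2.94 ± 0.74, a difference of -0.89 that was -0.46 without replicate 2. In PC-3 the ratio of TIPIN to TIMELESS was higher by 0.78 at 12 h, without overlap, and by 0.35 at 24 h, with overlap. The ratio of ATR to ATM was higher at both times in PC-3 (by 0.79 and 0.53) and in LNCaP (by 0.91 and 0.84), without overlap, and in CT1258 the groups overlapped (differences of -0.10 and 0.14). The ratio of CLSPN to CHEK1 was higher by 1.18 and 0.69 in LNCaP and by 0.52 and 0.24 in PC-3, without overlap, against 0.13 and 0.03 in CT1258 with overlap. The ratio of ATRIP to ATR was lower in CT1258 (by -0.99 and -0.78, without overlap). It was higher in LNCaP (by 0.63 with overlap and 0.42 without) and in PC-3 (by 0.11 and 0.26, with overlap). These 30 comparisons could not reach significance, since the smallest two-sided p of an exact permutation test is 0.1 for 3 against 3 samples and 0.2 for 2 against 3, and the smallest adjusted p was 0.25.

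**Figure D4:**
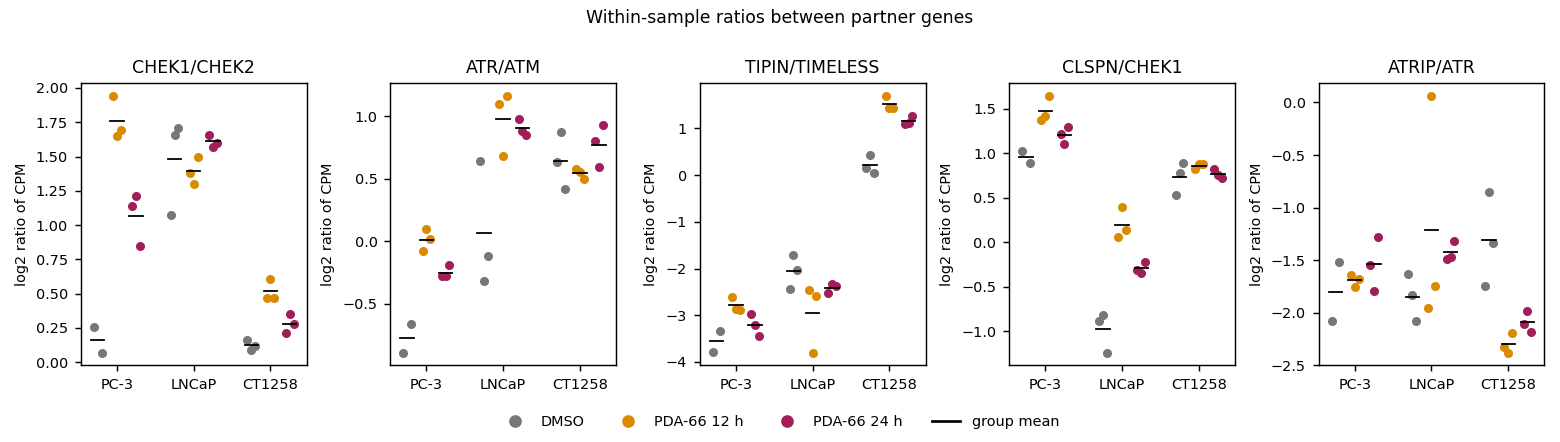
Log2 ratio of CPM between partner genes in each sample (vertical axis), with DMSO in grey, PDA-66 12 h in orange, PDA-66 24 h in purple and bars at the group means. In PC-3 the mean ratio of CHEK1 to CHEK2 moves from 0.16 to 1.76 at 12 h, and in CT1258 that of TIPIN to TIMELESS from 0.21 to 1.52.

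Levels can be compared between genes only per length, here as CPM per kilobase of transcript in the human lines. TIMELESS had the highest level of the 10 genes in all 6 human groups, with 22.6 ± 3.47 CPM per kilobase (SD, n = 2) in PC-3 controls and 17.0 ± 5.8 (SD, n = 3) in LNCaP controls. In PC-3 controls it was followed by TOPBP1 (15.2 ± 1.1) and CHEK2 (12.2 ± 1.97), then by RAD9A, ATM, ATR, CHEK1, CLSPN and TIPIN between 8.69 and 5.68, and ATRIP was the lowest at 3.91 ± 0.812. Among those 6 genes neighbours differed by less than the larger of their SDs, except ATR and CHEK1 (7.56 ± 0.504 and 6.06 ± 0.443). In LNCaP controls CHEK1, TOPBP1, TIPIN and CHEK2 stood between 12.7 and 10.5 CPM per kilobase, closer to each other than their SDs, and CLSPN was the lowest at 3.22 ± 1.1. After 12 h of PDA-66, CLSPN had moved from rank 8 to rank 3 in PC-3 (16.1 ± 1.3) and from rank 10 to rank 6 in LNCaP (13.5 ± 1.09), while ATM was last in LNCaP (2.81 ± 0.846). Between the controls of the human lines, CHEK1 was lower in PC-3 than in LNCaP by 1.05 ± 0.18 on the log2 scale (adjusted p = 8.99e-05) and TIPIN by 1.04 ± 0.21 (adjusted p = 0.000422), so that 2 of the 10 genes differed, against 41.2% of all genes. With PC-3 DMSO replicate 2 left out, or replicate 3, none was called. The fit of the human controls also used 1 estimate of spread per gene for both lines. In GRCh37 the genes lie on chromosomes 1 (CLSPN, 36185819 to 36235579), 3 (ATR, TOPBP1 and ATRIP), 11 (ATM, CHEK1 and RAD9A), 12 (TIMELESS, 56810147 to 56843210), 15 (TIPIN, 66628529 to 66679084) and 22 (CHEK2, 29083731 to 29138410).

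The genes around the checkpoint were followed by lists. Of all genes, 13% and 8.88% were called higher in PC-3 at 12 h and 24 h, and 22.2% and 16.6% in CT1258. In either direction the shares were 27.6% and 19.3% in PC-3, and 44.3% and 33.8% in CT1258. Some of the list counts lie near these shares, and the lists were not tested as sets. Of the 4 clamp and loader genes (RAD1, HUS1, RAD17, RHNO1), 2 were higher in PC-3 at 12 h and 1 at 24 h, and in CT1258 3 were higher and 1 lower at both times. HUS1, a clamp subunit, rose in PC-3 at 12 h (log2 fold change 0.75) and fell in CT1258 (log2 fold change -0.72 at 12 h), whereas RAD1 rose in CT1258 (1.43). Of the 4 genes for RPA and the second ATR activator ETAA1, 1 was higher in PC-3 at each time, and 3 and 2 in CT1258. ETAA1 rose there by 1.39 at 12 h and was at -0.08 in PC-3, not called. Of 9 genes for the MRN complex and break mediators, 2 and 4 were higher in PC-3 and 6 at each time in CT1258. BRCA1, which promotes repair by recombination, rose by 0.71 and 0.95 in PC-3 and by 1.81 and 1.25 in CT1258.

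Among PRKDC and the 3 chaperone genes of the large kinases, 3 were higher in PC-3 at 12 h and 2 at 24 h, and PRKDC, the catalytic subunit of DNA-PK, rose by 1.11 and 1.08. TELO2, a chaperone subunit that stabilizes ATM and ATR, rose in PC-3 at 12 h (0.63) and fell in CT1258 (-0.96 and -0.88). Of the 6 genes of the CDK switch below CHK1, 2 were higher in PC-3 at each time, and in CT1258 2 were higher and 1 lower at 12 h and 3 higher at 24 h. CDC25A, the phosphatase that CHK1 marks for degradation, rose by 1.29 and 1.10 in PC-3 and by 1.51 and 1.02 in CT1258. PKMYT1, a kinase that inhibits CDK1, rose by 1.28 and 1.06 in PC-3 and was at 0.05 in CT1258 at 12 h, not called. Of 3 genes for a phosphatase and deubiquitinases that act on the checkpoint (PPM1D, USP7 and USP28), USP28 rose in PC-3 (0.95 and 1.29) and in CT1258 at 12 h (0.86). Of 4 fork partners, 2 were higher in PC-3 at each time, and 1 of the 3 found in the CT1258 table at each time, with WDHD1 at 1.27 and 1.38 in PC-3 and 1.14 and 0.53 in CT1258. These counts stand beside 13% and 8.88% of all genes called higher in PC-3 at 12 h and 24 h, and 22.2% and 16.6% in CT1258. Shares in either direction were 27.6% and 19.3% in PC-3, and 44.3% and 33.8% in CT1258. In LNCaP no gene of these lists was called, against 0.0076% and 0% of all genes. Its CDK switch genes had a median log2 fold change of 1.40 at 12 h, with 5 of 6 at an adjusted p below 0.05 (9.14% of all genes), and at 24 h a median of 1.01 with 2 of 6 (2.92% of all genes).

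The cell cycle lists moved along with the checkpoint genes. Of the 43 S phase genes in the Seurat package, which include CLSPN, 28 and 31 were called higher in PC-3 at 12 h and 24 h and none lower. In CT1258 30 and 23 of the 39 found were higher, and 2 were lower at 24 h. Of the 54 G2/M genes, 15 were higher and 1 lower in PC-3 at each time, and of the 48 found in CT1258 37 were higher and 1 lower at 12 h and 43 higher at 24 h. Over all genes, 13% and 8.88% were higher in PC-3 at 12 h and 24 h, and 22.2% and 16.6% in CT1258. In LNCaP none of either list was called. All 43 S phase and 54 G2/M genes had positive changes there at both times, with medians of 1.15 and 1.08 (S phase) and 1.28 and 1.10 (G2/M). The part of these shifts in the levels of the checkpoint genes was not tested. The genes whose levels were most like those of CHEK1, by Pearson correlation of log2 CPM centred per line over 26 samples and 8265 genes, were HELLS (r = 0.981), TEX30 (0.968), SKA3 (0.966), ESCO2 (0.964) and ANKRD32 (0.964). For ATM they were SPG11 (0.944), SH3D19 (0.932), ZNF507 (0.930), JMJD1C (0.922) and TTC37 (0.920). Among the 10 genes, CHEK1 was closest to TIPIN (0.96) and CLSPN (0.94), ATR to TOPBP1 (0.89), and TIMELESS to ATRIP (0.82), while ATM correlated negatively with RAD9A (-0.55) and TIMELESS (-0.53). The samples behind these correlations share their treatment groups and the length gap, and no p is given.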

How the data were processed

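Poly(A) RNA was sequenced as single reads in all 3 lines. According to the submitters' processing notes and the study's methods, the authors used STAR 2.3.1s with hg19 for the human libraries, while BWA and CanFam3.1 served for the dog libraries. The authors deposited raw counts per gene, which were used as whole counts. Counting by strand and the handling of multi-mapping reads are not given in the sources used here. One column of the PC-3 table carries trailing separators that were removed. The labels assign 27 samples to groups and 26 had counts, the remaining PC-3 control being not analysed here. The labels leave the replicate number open for 2 samples that share the group PC-3 PDA-66 12 h.

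Counts were analysed per cell line with edgeR 4.0.16 (filterByExpr, TMM factors, glmQLFit and glmQLFTest with 3 groups, Benjamini-Hochberg adjustment over all genes tested) in R 4.3.3. The fits held 13777 (PC-3), 13156 (LNCaP) and 9886 genes (CT1258). Responses were compared between lines in a fit with 9 groups over 8265 shared genes, and the human controls in a fit over 14855 genes. Alternatives used DESeq2 1.42.0 and limma 3.58.1, and those for gene length, for leaving out controls of PC-3 and for the leave-one-out fits of the human controls were chosen after seeing the data. Gene positions and lengths came from GENCODE on GRCh37, and canine genes were given the length of the human gene of the same symbol. The statistics were tested on simulated data. All 10 genes were named in every line, and the genes of the other lists by the largest log2 fold change among those called. The genes and lists were chosen with earlier results of these data known. Protein sequences were not used here. One of the marker genes is not reported here.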

Additional observations from a re-analysis of the deposited data

Results flagged for a closer look

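For 5 differences between cell lines the test of the difference itself passed an adjusted p of 0.001 (edgeR's quasi-likelihood test over 8265 genes), all in the comparison of PDA-66 12 h with DMSO. The fit used 1 estimate of spread per gene for all lines, so standard errors for pairs with LNCaP may be too small. CHEK2 differed by a log2 difference of -1.58 between PC-3 and LNCaP and of -1.74 between PC-3 and CT1258. TIMELESS differed by -1.31 between PC-3 and LNCaP and by 1.62 between LNCaP and CT1258. ATM differed by -1.85 between LNCaP and CT1258. Without LNCaP PDA-66 12 h replicate 2 the differences that involve LNCaP were -1.58 (CHEK2), -1.06 and 1.37 (TIMELESS) and -1.63 (ATM), all called. Without CT1258 DMSO replicate 2 those that involve CT1258 were -1.77 (CHEK2), 1.61 (TIMELESS) and -1.61 (ATM), all called. No fit left out both of these samples, and the fits of differences had no correction for gene length. Without PC-3 DMSO replicate 3 the difference of CHEK2 between PC-3 and LNCaP was -1.39 (adjusted p = 0.00261) and that of TIMELESS -1.45 (adjusted p = 0.002), neither of them called.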

How the results depend on the processing

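CHEK1, CLSPN and TIPIN were called in PC-3 and CT1258 at both times in every fit that left out 1 sample. The number of the 10 genes called depended on the test, as did the share of all genes called, given in parentheses. In PC-3 it was 7 and 7 at 12 h and 24 h with edgeR's likelihood ratio test (38.8% and 30.6%) and 10 and 8 at an adjusted p below 0.05 (57% and 49.9%), and for 24 h against 12 h it was 3 with limma voom (16.8%). In LNCaP it was 3 and 3 with the likelihood ratio test (4.34% and 1.96%), 3 and 3 with DESeq2 (4.71% and 2.17%), 6 and 6 with voom (13.9% and 11.2%), 5 and 4 at an adjusted p below 0.05 (9.14% and 2.92%), and 2 and 2 with the length correction and 12 h replicate 2 left out (2.91% and 1.3%). For CT1258 24 h against 12 h it was 1 with the likelihood ratio test (7.38%), 1 with DESeq2 (6.75%), 2 with voom (21%), 2 with only these groups (12%), 3 at an adjusted p below 0.05 (19.3%) and 2 with the length correction and DMSO replicate 2 left out (14.5%). For response differences it was 1 between PC-3 and LNCaP at 12 h with library size only (3.9%), 2 and 2 between PC-3 and CT1258 with voom (32.4% and 23%), 3 and 2 at an adjusted p below 0.05 (39.2% and 28.6%), and 8 and 2 between LNCaP and CT1258 at that threshold (56.8% and 31.8%), where the human controls gave 5 (64%). Leaving out 1 sample gave 3 to 6 genes in PC-3 at 12 h, 3 to 5 at 24 h and 0 to 1 between the times, 0 to 2, 0 to 1 and 0 to 0 in LNCaP, 6 to 7, 6 to 7 and 0 to 2 in CT1258, 0 to 2 (PC-3 and LNCaP), 1 to 2 (PC-3 and CT1258) and 2 to 2 (LNCaP and CT1258) for differences at 12 h, 0 to 0, 0 to 0 and 0 to 3 at 24 h, and 0 to 2 for the human controls. The number of all genes called also moved with the sample left out. Without LNCaP PDA-66 12 h replicate 2, 1971 of 8265 genes differed between LNCaP and CT1258 at 24 h, against 479 with all samples. Leaving it out of the LNCaP fit called 261 of 13335 genes at 12 h, against 1 of 13156. In PC-3 between the times, the fits with 0 of the 10 genes called 59 to 79 genes, against 194 with all samples. The fit with a replicate block in PC-3 at 24 h held only replicates 2 and 3 of DMSO and of PDA-66 24 h. In it 2 genes were called (11.5%), and TIMELESS and TIPIN were lost. The effect of the block and that of the fewer samples cannot be told apart there. Samples with the same number did not clearly deviate together, with correlations of their deviations from the group means between -0.42 and 0.185. With 2 or 3 samples a group, and some samples standing apart, this cannot exclude that they were paired. For the other PC-3 comparisons no block could be fitted because the groups share fewer than 2 numbers.

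None of the values that changed sign was called with all samples. ATRIP in PC-3 between the times was -0.06 with voom. In LNCaP between the times CHEK2 was 0.00 (library size), 0.01 (voom) and 0.04 (length correction), ATR -0.04 (voom) and -0.09 (length correction and a sample left out), TIPIN -0.03 and -0.12, TOPBP1 0.00 and -0.07, RAD9A 0.00 (voom) and ATRIP -0.02 (length correction). In CT1258 at 12 h TIMELESS was 0.02 (library size) and RAD9A 0.01 and 0.09 with the length correction, without and with a sample left out. Leaving out 1 sample, the ranges that crossed 0 were -0.28 to 0.08 for ATM in PC-3 at 24 h, -0.07 to 0.51 for ATR in LNCaP at 12 h, -0.12 to 0.45 (ATR), -0.12 to 0.32 (ATRIP), -0.09 to 0.21 (TIPIN) and -0.08 to 0.45 (TOPBP1) in LNCaP between the times, and -0.24 to 0 (RAD9A) and -0.03 to 0.03 (TIMELESS) in CT1258 at 12 h. The cause was not tested. Alternatives with a length correction or without a PC-3 control were chosen after seeing the data.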
